A study of Mus musculus with 4 samples.

Results

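The genes described here are 10 genes of blood vessels and of the apelin pathway: Pecam1, Cdh5, Kdr, Flt1, Tek, Vwf, Car4, Ednrb, Apln and Aplnr. They were taken by name from a table of 35275 genes, and all 10 were found and passed the filter on low values (at least 2 libraries at an FPKM of 1 or above; FPKM is reads scaled to the length of the gene and the read total of the library). RNA was sequenced from lung tumours of Balb/c mice, with 2 libraries from Nrf2 -/- animals (KO 1 and KO 2) and 2 from Nrf2 +/+ animals (WT 1 and WT 2). Tumours had been induced in all mice with the carcinogen vinyl carbamate, at 16 mg/kg in 2 or 4 doses, and were taken 40 to 44 weeks later. Each library came from 3 to 4 pooled tumours, and the labels do not tie a number of doses, weeks or tumours, or an age, to a library, nor say whether the deletion is limited to any tissue.

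Blood vessels are lined by endothelial cells, which are held together by PECAM1 and VE-cadherin (Cdh5) and depend on signals through VEGF receptors and the receptor TIE2 (Tek). In the mouse lung, alveolar capillaries hold a large gas-exchange cell, the aerocyte, marked by Car4, Ednrb and Apln, and a general capillary cell, marked by Aplnr. Apln encodes the peptide apelin, which is made by endothelial tip cells and other cells and is sensed by its receptor APJ, the product of Aplnr. Nrf2, the product of Nfe2l2, switches on genes that protect cells from oxidants and reactive chemicals, and the comparison asks how tumours without it differ in expression.

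The libraries implied totals of 16.89 to 17.98 M reads for KO tumours and 21.22 to 21.66 M reads for WT tumours (1 M is 1000000 reads). Nfe2l2, the targeted gene, stood at 3.66 and 2.96 FPKM in KO 1 and KO 2, against 96.3 and 87.9 FPKM in WT 1 and WT 2. Lung identity was plain in every library: the 7 alveolar type 2 cell markers, led by Sftpc, summed to 114488 and 98745 FPKM in KO tumours and to 101835 and 102987 FPKM in WT tumours. Vessel RNA was present in all 4 as well, with every one of the 10 genes above 2 FPKM in each library.

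None of the 10 genes was called between the genotypes (limma adjusted p under 0.05), and 15 of 13147 tested genes were, or 0.114%. At an unadjusted p under 0.05, limma gave 1 of the 10 (Tek), against 15.4% of all tested genes (8.36% higher and 7.01% lower in KO tumours), and limma-voom on recovered reads also called 0. The median log2 fold change over the 10 was 0.32, against 0.00 over all tested genes, and 8 of the 10 were above 0, beside 49.2% of all tested genes. That median rested on single libraries: it was -0.04 without WT 2, 0.10 without KO 2, 0.59 without KO 1 and 0.82 without WT 1. KO and WT values did not overlap for 2 of the 10 genes, Tek and Apln, both higher in KO tumours, a share of 20% beside 48.1% of all tested genes (22.7% higher and 25.4% lower). In bulk tumours, fewer cells of a type and less RNA per cell cannot be told apart.

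Larger differences lay between libraries of the same genotype. All 10 genes were higher in KO 2 than in KO 1, as were 58.3% of all tested genes, and all 10 were higher in WT 1 than in WT 2, as were 50.5% of all tested genes. WT 2 was the lowest library for 8 of the 10 genes and KO 1 for the other 2, while KO 2 was the highest for 7 and WT 1 for 3. For each of the 10, the log2 difference between genotype means was smaller than the larger difference between libraries of 1 genotype. This also held for 64.7% of all tested genes.

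**Figure D1:**
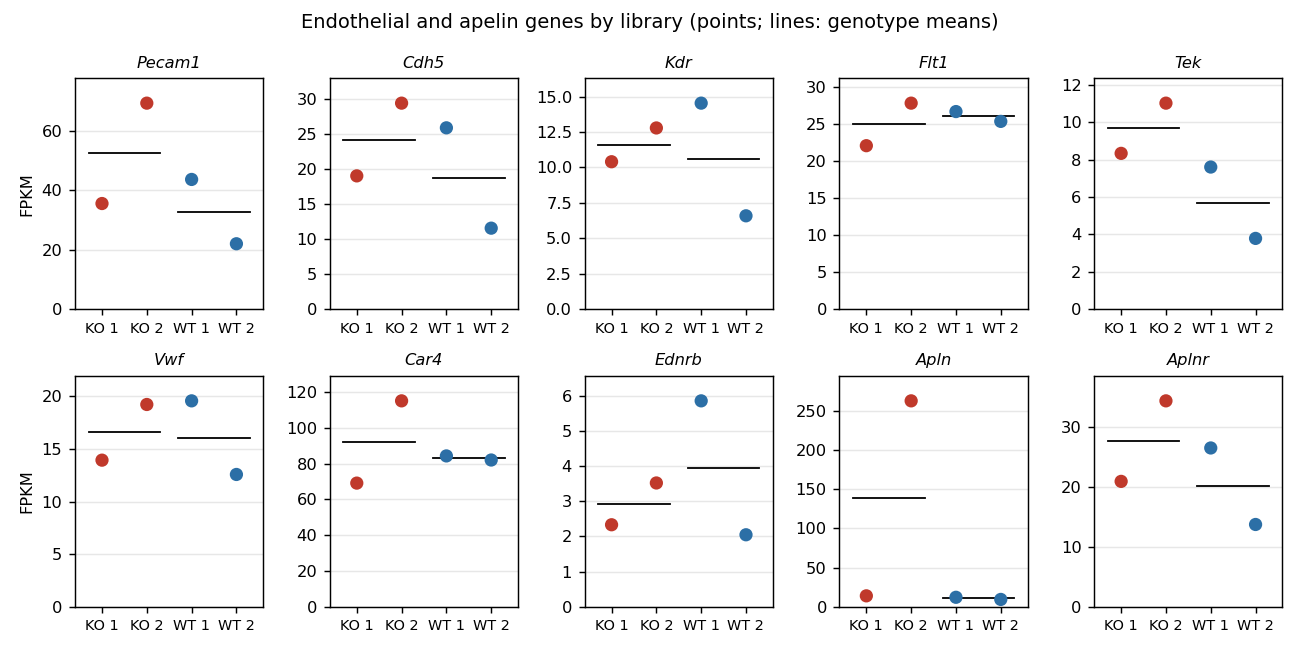
FPKM of each gene in KO 1, KO 2, WT 1 and WT 2 (points; red, KO; blue, WT), with the mean of each genotype as a line. WT 2 is the lowest library in 8 of the 10 panels, and the Apln panel is set by KO 2 at 263 FPKM.

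Apln (chromosome X, 48025146 to 48034853) had by far the widest spread of the 10 (coordinates are those of GENCODE on GRCm38, which is mm10). It stood at 14.0 and 263 FPKM in KO 1 and KO 2, against 12.1 and 9.41 FPKM in WT 1 and WT 2. Only KO 2 was high, and KO 1 lay just above both WT libraries. The level in KO 2 was 18.8 times that in KO 1, 21.6 times that in WT 1 and 27.9 times that in WT 2. It rested on 13970 reads in KO 2, against 792 in KO 1, 828 in WT 1 and 629 in WT 2, so that counting error is small beside the gap. The log2 fold change (KO over WT, on the FPKM + 1 scale, here and throughout) was 2.43 ± 1.19 (SE), with a 95% interval of -0.47 to 5.33 (limma adjusted p = 0.398). It was 0.36 without KO 2 (limma adjusted p = 0.514) and 4.49 without KO 1, where the call (limma adjusted p = 0.000101) rests on 1 KO library assumed to vary like the WT pair.

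Such a gap was rare among all genes. Of the 13147 tested genes, 8 were at least 10 times as high in KO 2 as in any other library, against 1 each in KO 1 and WT 1 and 0 in WT 2, and Apln was the fifth of the 8 by that ratio. These genes were listed after their values were seen. The first was Retnla, which encodes the secreted protein RELM-alpha of type 2 immune responses, at 62.0 and 4276 FPKM in KO 1 and KO 2 and at 36.0 and 13.6 FPKM in WT 1 and WT 2. Next came the anion exchanger gene Slc26a4 (pendrin), at 5.45 and 274 FPKM in KO tumours and at 1.37 and 1.06 FPKM in WT tumours, and the acidic chitinase gene Chia1, at 8.72 and 282 FPKM against 2.15 and 1.45 FPKM in WT tumours. Rnase2a, a ribonuclease gene of the eosinophil family, stood at 1.87 and 49.6 FPKM in KO tumours and at 0.202 and 0.137 FPKM in WT tumours. The remaining 3 were Col14a1, which encodes a fibril-associated collagen, Corin, which encodes a serine protease that processes natriuretic peptides, and the kappa variable segment Igkv7-33, which belongs to a family of similar genes. Whether these transcripts came from the same cells as Apln was not tested.

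**Figure D2:**
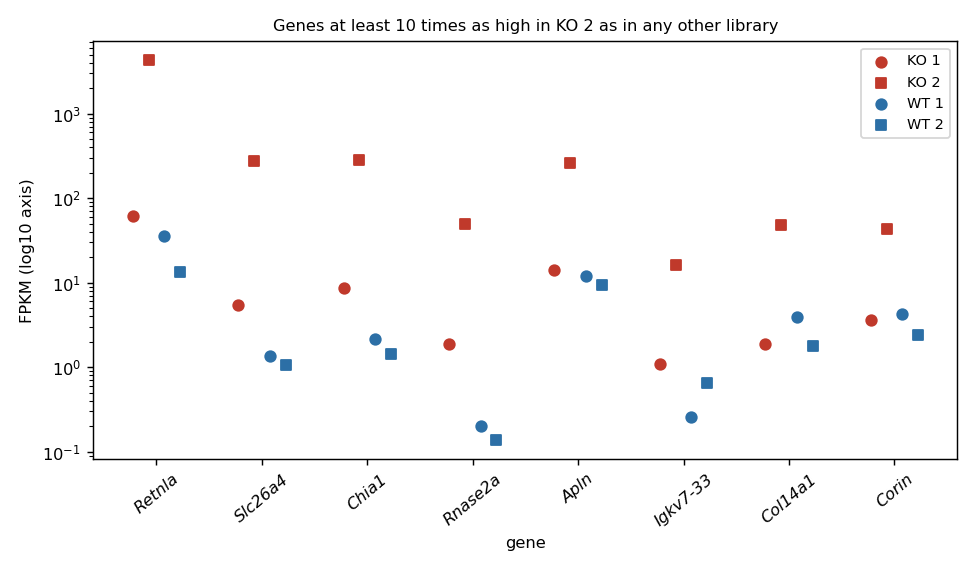
FPKM on a log10 axis of the 8 tested genes that were at least 10 times as high in KO 2 (red squares) as in KO 1 (red circles), WT 1 (blue circles) or WT 2 (blue squares), ordered by that ratio. Apln, at 263 FPKM in KO 2, is the fifth, and its other 3 libraries lie between 9.41 and 14.0 FPKM.

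By the root mean square difference of log2(FPKM + 1) profiles, centred on the mean of the 4 libraries, the tested genes most like Apln were Col14a1 (0.41), Pigr (0.43) and Corin (0.47). The median over all other tested genes was 1.90. Pigr, which encodes the transporter of polymeric immunoglobulin across epithelium, stood at 22.8 and 185 FPKM in KO 1 and KO 2 and at 13.4 and 11.9 FPKM in WT 1 and WT 2. Its KO and WT values did not overlap, and the larger gap lay again between the KO libraries.

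The promoter of Apln is shown because this gene sets the widest gap, beside those of the receptor genes Kdr and Tek, whose levels did not follow it. Each is the 250 bases before the RefSeq start site (GRCm38.p6), for Apln chrX:48034854-48035103 (minus strand), for Kdr chr5:75978456-75978705 (minus strand) and for Tek chr4:94739039-94739288 (plus strand). Capitals mark matches, on either strand, to TGACNNNGC (the core of the antioxidant response element bound by NRF2), CCGGAA or CAGGAA (bound by ETS factors) or ACGTG (the core of the hypoxia response element).
Apln: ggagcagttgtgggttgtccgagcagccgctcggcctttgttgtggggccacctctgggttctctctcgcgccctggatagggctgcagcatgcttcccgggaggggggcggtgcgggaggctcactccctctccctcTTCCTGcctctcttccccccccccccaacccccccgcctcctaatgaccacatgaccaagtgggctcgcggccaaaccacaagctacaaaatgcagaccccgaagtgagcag
Kdr: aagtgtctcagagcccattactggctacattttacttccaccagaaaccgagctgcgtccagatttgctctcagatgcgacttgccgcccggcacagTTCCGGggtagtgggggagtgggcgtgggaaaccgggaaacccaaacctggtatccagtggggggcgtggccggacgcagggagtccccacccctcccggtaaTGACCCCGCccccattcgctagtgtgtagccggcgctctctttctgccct
Tek: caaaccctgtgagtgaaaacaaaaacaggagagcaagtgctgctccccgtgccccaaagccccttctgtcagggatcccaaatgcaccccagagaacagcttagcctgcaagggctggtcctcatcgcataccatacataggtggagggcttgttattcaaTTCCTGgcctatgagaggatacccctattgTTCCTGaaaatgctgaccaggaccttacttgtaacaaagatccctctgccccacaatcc
RefSeq windows were found for 6 of the 10 genes, with Flt1, Car4 and Ednrb besides these 3. Of them, TGACNNNGC occurred in the Kdr window alone, as in 10.2% of 32851 windows of all genes, and ACGTG in none of the 6, against 16.6% of all windows. CAGGAA occurred 1 time in Apln and 2 times in Tek, and was in 25.7% of all windows. CCGGAA occurred in Kdr and, as a palindrome counted on both strands, in Car4, and was in 12.0% of all windows. A match describes the letters only, and no match says only that they are not in this window.

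The apelin receptor gene Aplnr (chromosome 2, 85136225 to 85139923) did not share the gap of its ligand. It stood at 20.9 and 34.4 FPKM in KO 1 and KO 2, against 26.5 and 13.7 FPKM in WT 1 and WT 2, and the groups overlapped. Its log2 fold change was 0.47 ± 0.34 (SE; limma adjusted p = 0.554). The ratio of Apln to Aplnr in FPKM was 0.668 in KO 1 and 7.64 in KO 2, against 0.458 in WT 1 and 0.685 in WT 2. Genes with the nearest profiles to Aplnr included Tie1, an endothelial receptor related to TIE2 (0.06), at 13.4 and 20.1 FPKM in KO tumours and at 15.4 and 8.41 FPKM in WT tumours, and the matrix gene Prelp (0.07). Igkv6-32, an immunoglobulin segment at under 2 FPKM in every library, was nearest of all (0.06), and the median over all other genes was 0.48.

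The rest of the apelin pathway was fixed as a list of 5 genes, of which 4 were tested and 0 called in limma. At an unadjusted p under 0.05 in limma, Mme was the 1 gene higher in KO tumours, beside 8.36% of all tested genes. Apela, which encodes the second APJ ligand, was listed at 0 in all 4 libraries. Mme, which encodes the peptidase neprilysin, stood at 6.34 and 5.60 FPKM in KO tumours and at 3.47 and 2.12 FPKM in WT tumours (limma adjusted p = 0.162). Its KO and WT values did not overlap.

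The pan-endothelial junction genes Pecam1 and Cdh5 moved together across libraries. Pecam1 (chromosome 11, 106654217 to 106750628), which encodes an adhesion molecule of endothelial cells that platelets and leukocytes also carry, stood at 35.6 and 69.4 FPKM in KO 1 and KO 2, against 43.7 and 22.0 FPKM in WT 1 and WT 2. Cdh5 (chromosome 8, 104101625 to 104144511), which encodes VE-cadherin, the adhesion protein of endothelial junctions, stood at 19.1 and 29.5 FPKM in KO tumours, against 25.9 and 11.6 FPKM in WT tumours. KO 2 was highest, WT 2 lowest and the others between them for both genes, so the groups overlapped. The log2 fold change was 0.66 ± 0.40 for Pecam1 and 0.43 ± 0.37 for Cdh5 (SE; limma adjusted p = 0.474 and 0.621).

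Among the 15 junction and surface genes of endothelium, 0 were called in limma, while 5 had an unadjusted p under 0.05, all higher in KO tumours. The same 5 were the genes without overlap. Of all tested genes, 8.36% were higher at that unadjusted p and 22.7% were higher without overlap. The median log2 fold change of the 15 was 0.43. Icam2, which encodes an adhesion molecule of resting endothelium, stood at 17.5 and 25.1 FPKM in KO tumours and at 15.7 and 7.82 FPKM in WT tumours. Cldn5, which encodes the tight junction protein claudin-5, stood at 21.1 and 33.8 FPKM against 19.1 and 11.4 FPKM in WT tumours, and Clec14a, a surface lectin gene, at 8.89 and 11.9 FPKM against 7.90 and 4.23 FPKM in WT tumours. Limma's adjusted p for the 3 was between 0.28 and 0.294. Esam and Jam2, junction genes of the same list named after their values were seen, did not share the order of Pecam1 and Cdh5. Esam stood at 93.7 and 111 FPKM in KO tumours, against 107 and 108 FPKM in WT tumours. Jam2 stood at 18.2 and 23.9 FPKM in KO tumours, against 23.0 and 19.1 FPKM in WT tumours. KO 1 was the lowest library for both.

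The VEGF receptors differed from each other in pattern. Kdr (chromosome 5, 75932827 to 75978458), which encodes VEGFR2, the main signalling receptor for VEGF-A, stood at 10.4 and 12.8 FPKM in KO 1 and KO 2, against 14.5 and 6.59 FPKM in WT 1 and WT 2. Both KO values lay between the WT values. Flt1 (chromosome 5, 147561604 to 147726011), which encodes VEGFR1, a receptor that binds VEGF-A tightly and limits its signal, stood at 22.1 and 27.9 FPKM in KO tumours, against 26.7 and 25.4 FPKM in WT tumours. Flt1 was the steadiest of the 10, with its highest library 1.26 times its lowest, against 2.21 times for Kdr. The log2 fold change was 0.21 ± 0.32 for Kdr (SE; limma adjusted p = 0.805), and for Flt1 it was -0.07 ± 0.14 (SE; limma adjusted p = 0.856). The 95% interval was -0.58 to 1.00 for Kdr and -0.40 to 0.27 for Flt1.

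VEGF ligands and receptors, 10 genes tested, held 0 calls and 1 gene with an unadjusted p under 0.05 in limma, the VEGF co-receptor gene Nrp1 (log2 fold change -0.34, named after its values were seen, as are other genes below that are given by name alone), with a median log2 fold change of 0.14. Vegfd, which encodes a ligand of VEGFR3, was the 1 gene of the list wholly higher in KO tumours. It stood at 3.79 and 4.95 FPKM there and at 3.52 and 2.16 FPKM in WT tumours (limma adjusted p = 0.352). Nrp1 was the 1 gene wholly lower, at 83.9 and 89.2 FPKM in KO tumours, against 120 and 100 FPKM in WT tumours. Of all tested genes, 22.7% were wholly higher and 25.4% wholly lower, and 7.01% were lower at an unadjusted p under 0.05 in limma. Pgf, which encodes placental growth factor, a VEGFR1 ligand, stood at 1.72 and 3.93 FPKM in KO tumours and at 1.78 and 1.58 FPKM in WT tumours.

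Tek (chromosome 4, 94739289 to 94874976) was the 1 gene of the 10 with an unadjusted p under 0.05. It encodes TIE2, the angiopoietin receptor, and stood at 8.34 and 11.0 FPKM in KO 1 and KO 2, against 7.61 and 3.79 FPKM in WT 1 and WT 2. Both KO libraries lay above both WT libraries, with KO 1 close to WT 1. The log2 fold change was 0.72 ± 0.29 (SE; limma unadjusted p = 0.0449, adjusted p = 0.315). Angpt1, which encodes the activating ligand of TIE2, stood at 1.76 and 1.86 FPKM in KO tumours and at 1.13 and 0.753 FPKM in WT tumours (limma adjusted p = 0.253), without overlap. Angpt2, which encodes the context-dependent ligand, stood at 1.35 and 3.26 FPKM in KO tumours and at 2.50 and 1.48 FPKM in WT tumours, and overlapped. Of the 5 tested angiopoietin and TIE genes, 0 were called in limma, and the 2 with an unadjusted p under 0.05 were Tek and Angpt1. Both were higher in KO tumours, as were 8.36% of all tested genes at that p.

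Vwf (chromosome 6, 125546774 to 125686679), which encodes von Willebrand factor, the clotting protein stored by endothelial cells and platelets, stood at 13.9 and 19.2 FPKM in KO 1 and KO 2, against 19.6 and 12.6 FPKM in WT 1 and WT 2. Both KO values lay between the WT values, with a log2 fold change of 0.06 ± 0.24 (SE; limma adjusted p = 0.932), which was -0.01 after rescaling each library to a sum of 1000000. The 7 megakaryocyte and platelet markers, of which 2 were tested, summed to 239 and 226 FPKM in KO tumours and to 232 and 277 FPKM in WT tumours. Most of that sum was Pf4, at 232 and 217 FPKM in KO tumours, against 228 and 272 FPKM in WT tumours. The other tested marker, Itga2b, was higher in both KO libraries, at 4.23 and 6.38 FPKM against 2.80 and 3.07 FPKM in WT tumours (limma adjusted p = 0.232). The markers not tested did not reach an FPKM of 1 in 2 libraries. The part of platelets in the Vwf and Pecam1 levels was not tested. Of the 10 tested activation and haemostasis genes of endothelium, 0 were called in limma. An unadjusted p under 0.05 was reached by Vcam1 and Thbd, both higher, and by Procr, lower in KO tumours. The shares of all tested genes at that p were 8.36% higher and 7.01% lower. Thbd, which encodes the anticoagulant receptor thrombomodulin, stood at 10.1 and 14.2 FPKM in KO tumours and at 8.71 and 4.90 FPKM in WT tumours, and Selp, which encodes P-selectin, at 0.851 and 4.23 FPKM against 1.18 and 0.789 FPKM in WT tumours, with KO 2 alone high.

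The aerocyte genes Car4 and Ednrb did not follow Apln. Car4 (chromosome 11, 84957786 to 84966044), which encodes the membrane-bound carbonic anhydrase of capillary endothelium, was the most abundant of the 10, at 69.1 and 115 FPKM in KO 1 and KO 2, against 84.2 and 82.0 FPKM in WT 1 and WT 2. The WT libraries nearly coincided and lay between the KO libraries. Ednrb (chromosome 14, 103814625 to 103844402), which encodes the endothelin B receptor, was the least abundant, at 2.33 and 3.52 FPKM in KO tumours, against 5.86 and 2.05 FPKM in WT tumours. WT 1 was high and the groups overlapped. The log2 fold change was 0.10 ± 0.23 for Car4 and -0.24 ± 0.38 for Ednrb (SE; limma adjusted p = 0.871 and 0.812).

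In the aerocyte list, the 6 tested genes held 0 calls in limma, 2 with an unadjusted p under 0.05, both higher, and a median log2 fold change of 0.35. For this list and the general capillary list, the shares of all tested genes at that p were 8.36% higher and 7.01% lower. Tbx2, which encodes a T-box transcription factor, stood at 15.7 and 19.4 FPKM in KO tumours and at 9.38 and 6.69 FPKM in WT tumours (limma adjusted p = 0.12), and Prx, which encodes periaxin, at 5.44 and 4.52 FPKM against 3.45 and 2.49 FPKM in WT tumours (limma adjusted p = 0.232). Chst1, a sulfotransferase gene, overlapped, at 1.08 and 1.50 FPKM in KO tumours and at 1.45 and 1.20 FPKM in WT tumours. General capillary genes, 6 tested, held 0 calls in limma and 1 gene with an unadjusted p under 0.05, Sema3c, a semaphorin gene, at 42.6 and 50.5 FPKM in KO tumours and at 66.0 and 59.2 FPKM in WT tumours. Plvap, which encodes the diaphragm protein of fenestrae and caveolae, stood at 46.4 and 87.4 FPKM in KO tumours and at 50.9 and 29.0 FPKM in WT tumours, and Gpihbp1, which encodes the capillary anchor of lipoprotein lipase, at 30.0 and 46.8 FPKM against 32.3 and 21.9 FPKM in WT tumours.

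The endothelin pathway held 6 tested genes, with 0 calls in limma, 0 with an unadjusted p under 0.05 and a median log2 fold change of 0.03. Edn1, which encodes endothelin-1, stood at 1.59 and 2.22 FPKM in KO tumours and at 1.36 and 1.25 FPKM in WT tumours. Ednra, which encodes the endothelin A receptor of smooth muscle, stood at 4.27 and 8.57 FPKM in KO tumours and at 5.93 and 2.99 FPKM in WT tumours. Among all tested genes it had the profile nearest to the mean of the 10 described here, with a root mean square difference of 0.04 on the log2 scale over 4 libraries, where the median gene was at 0.48. The next were Loxl3 (0.06), Col1a2 (0.06), Sox18 (0.08) and Pmp22 (0.08). Sox18 encodes an endothelial transcription factor, and Col1a2 a chain of fibrillar collagen I. The mean of the 10 includes Apln. Centred on the 4-library mean, Apln lay at 3.28 in KO 2, where the median of the 10 was 0.46. Nearness to a mean without Apln was not tested.

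**Figure D3:**
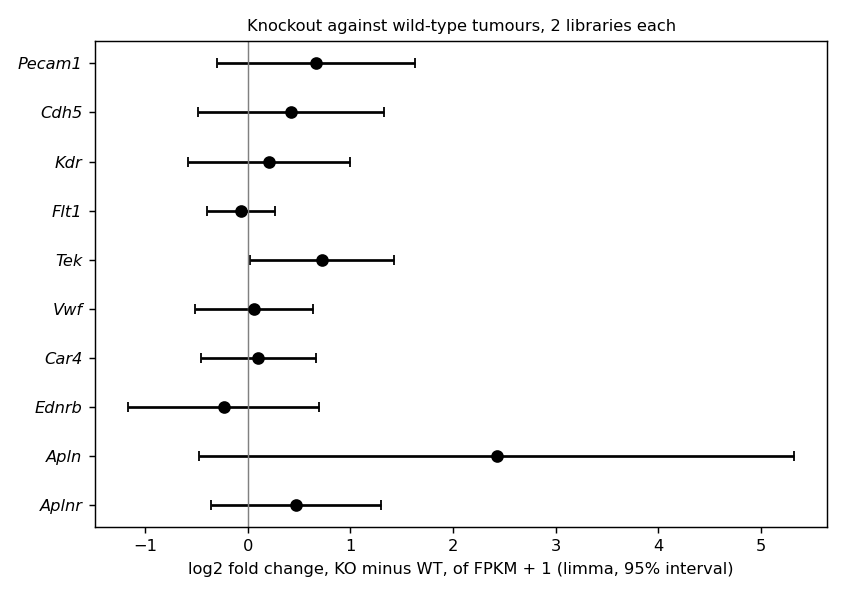
Log2 fold change of KO over WT (difference of mean log2(FPKM + 1)) for the 10 genes, with limma 95% intervals from 2 libraries per genotype. The interval of Apln runs from -0.47 to 5.33, and Tek, at 0.72, has the only interval of the 10 that lies above 0, before adjustment over all genes.

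Set against the mean log2(FPKM + 1) of Pecam1 and Cdh5 in the same library, Aplnr varied least. It lay at -0.30 and -0.39 in KO 1 and KO 2, against -0.33 and -0.21 in WT 1 and WT 2. Ednrb lay at -3.02 and -3.36 in KO tumours, against -2.34 and -2.48 in WT tumours, and Kdr at -1.25 and -1.75 in KO tumours, against -1.16 and -1.17 in WT tumours. Vwf lay at -0.86 and -1.19 in KO tumours, against -0.75 and -0.33 in WT tumours. On this scale these 3 of 8 genes were lower in both KO libraries than in both WT libraries and 0 were higher. Of all tested genes, 12.6% were lower and 0.685% higher in this way. Pecam1 and Cdh5 had log2 fold changes of 0.66 and 0.43 themselves, so the scale shifts every other gene towards lower values in KO tumours. On the plain scale, Ednrb, Kdr and Vwf all overlapped between the genotypes. The comparison is a description with no test, and the margin for Kdr was narrow. Tek, at -1.54 and -1.95 in KO tumours and at -2.01 and -1.83 in WT tumours, overlapped on this scale. In WT 2, Car4 (2.29) and Flt1 (0.63) stood above their other libraries, in which Car4 lay at 1.30 to 1.37 and Flt1 at -0.68 to -0.23.

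**Figure D4:**
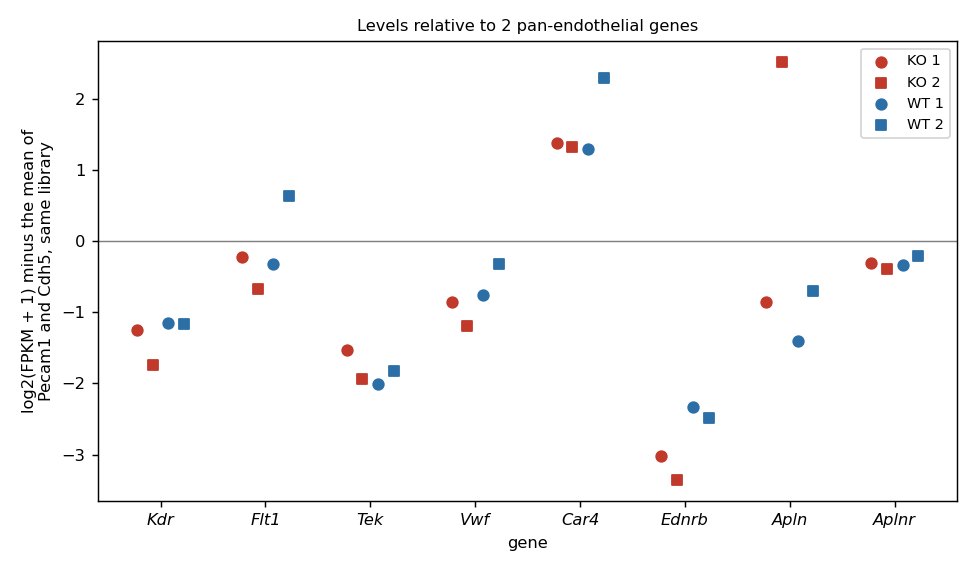
Log2(FPKM + 1) of the other 8 genes minus the mean of Pecam1 and Cdh5 in the same library, for KO 1 and KO 2 (red) and WT 1 and WT 2 (blue). Aplnr stays between -0.39 and -0.21, Apln reaches 2.51 in KO 2, and Ednrb, Kdr and Vwf are lower in both KO libraries. Pecam1 and Cdh5 are themselves higher on average in KO tumours, which lowers the other genes there on this scale.

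By geometric mean over the 4 libraries, on the FPKM scale, the levels ran from Car4 (86.1) through Pecam1 (39.3), Apln (25.5), Flt1 (25.4), Aplnr (22.6), Cdh5 (20.3), Vwf (16.0), Kdr (10.6) and Tek (7.17) to Ednrb (3.15). The place of Apln rests on KO 2, since in the other 3 libraries it lay below Flt1, Aplnr and Cdh5. Apln and its neighbours in this order, Pecam1 and Flt1, did not differ beyond the spread of their log2 ratio over the libraries, and neither did Flt1 and Aplnr. Aplnr exceeded Cdh5 in 4 of 4 libraries, by a log2 ratio of 0.16 with a standard deviation of 0.10.

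Transcription factors of endothelium held 14 tested genes, of which 0 were called in limma. At an unadjusted p under 0.05 in limma, 7 were higher in KO tumours and 0 lower, beside 8.36% and 7.01% of all tested genes. Without overlap, 8 were higher and 1, Klf4, lower, beside 22.7% and 25.4% of all tested genes. The part of other cell types in the levels of these genes was not tested. Erg, which encodes an ETS factor of endothelial cells, stood at 12.9 and 13.8 FPKM in KO tumours and at 9.15 and 5.98 FPKM in WT tumours (limma adjusted p = 0.185). Tbx3, a T-box gene, stood at 3.76 and 4.41 FPKM in KO tumours and at 2.39 and 1.53 FPKM in WT tumours (limma adjusted p = 0.173). For these genes KO 1 lay above WT 1, as it did for Tek and Apln alone among the 10 genes described above.

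Arterial genes, 8 tested, held 0 calls in limma, with Cxcl12, Sox17 and Gja4 higher and Efnb2 lower at an unadjusted p under 0.05. For each list in this paragraph, the shares of all tested genes at that p were 8.36% higher and 7.01% lower. Cxcl12, which encodes the chemokine ligand of CXCR4, stood at 23.6 and 31.4 FPKM in KO tumours and at 14.7 and 10.1 FPKM in WT tumours, and Efnb2, which encodes the arterial ligand ephrin-B2 that epithelium also makes, at 31.8 and 29.4 FPKM against 49.3 and 43.6 FPKM in WT tumours. Tip cell and Notch genes, 10 tested, held 0 calls, with Cxcr4 higher and Notch1 and Jag1 lower at an unadjusted p under 0.05. Notch1, which encodes a Notch receptor, stood at 51.7 and 47.2 FPKM in KO tumours and at 85.7 and 68.6 FPKM in WT tumours, and its ligand gene Jag1 at 20.8 and 19.1 FPKM against 30.1 and 29.2 FPKM in WT tumours. Venous genes (4 tested) and lymphatic genes (3 tested) held 0 calls and 1 gene each at an unadjusted p under 0.05, Vcam1 and Ccl21a, both higher in KO tumours.

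BMP and ALK1 signalling genes, 8 tested, held 0 calls in limma, with Bmp6, Acvrl1 and Eng higher and Id1 and Id3 lower at an unadjusted p under 0.05. For this list and the hypoxia list below, the shares of all tested genes at that p were 8.36% higher and 7.01% lower. Acvrl1, which encodes the endothelial receptor ALK1, stood at 32.6 and 38.4 FPKM in KO tumours and at 27.0 and 17.3 FPKM in WT tumours, and Id1, a target gene of BMP signals, at 121 and 108 FPKM against 180 and 179 FPKM in WT tumours. Hypoxia-induced genes, 10 tested, held 0 calls, with Adm and Pdk1 higher and Ndrg1 lower at an unadjusted p under 0.05 and a median log2 fold change of 0.10. Adm, which encodes the vessel peptide adrenomedullin, stood at 2.70 and 3.39 FPKM in KO tumours and at 1.50 and 1.26 FPKM in WT tumours. Centred on the 4-library mean, the hypoxia list had a median of 0.09 in KO 1 and 0.00 in KO 2. It was -0.23 in WT 1 and 0.13 in WT 2. A link of hypoxia to the Apln level was not tested. Membrane-bound and secreted carbonic anhydrases had 2 tested genes, Car4 and Car9, and 0 calls.

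Pericyte and fibroblast marker lists were likewise lowest in WT 2 and highest in KO 2, an order that was not limited to stroma. Centred on the 4-library mean, the median log2(FPKM + 1) of the 10 genes was -0.17 and 0.46 in KO 1 and KO 2, against 0.18 and -0.65 in WT 1 and WT 2. For 11 further pan-endothelial genes, all tested, it was -0.03 and 0.48 in KO tumours, against 0.03 and -0.59 in WT tumours. The 7 tested of 9 pericyte and smooth muscle markers had -0.10 and 0.52 in KO tumours, against -0.14 and -0.39 in WT tumours, and summed to 113 and 175 FPKM in KO tumours and to 107 and 87.0 FPKM in WT tumours. The 6 tested of 7 fibroblast markers had 0.04 and 0.55 in KO tumours, against -0.03 and -0.61 in WT tumours, and summed to 332 and 542 FPKM in KO tumours and to 336 and 227 FPKM in WT tumours. Among epithelial lists, the 3 tested of 4 ciliated cell markers had 0.02 and 0.41 in KO tumours, against 0.03 and -0.44 in WT tumours. The alveolar type 1 list was also highest in KO 2 (0.14) and lowest in WT 2 (-0.17). The 3 club cell markers were lowest in WT 2 (-0.975), with close medians in KO 1 (0.45) and KO 2 (0.41). They summed to 2125 and 3195 FPKM in KO tumours and to 1802 and 784 FPKM in WT tumours, so their sum was highest in KO 2. None of these markers was listed at 0 in all libraries, and their part in the vessel results was not tested. The medians of the alveolar type 1 and type 2 lists stayed within 0.18 of the mean in every library. Red blood cell markers summed to 1194 and 1094 FPKM in KO tumours and to 247 and 490 FPKM in WT tumours. The medians of the vessel lists did not separate KO from WT libraries in this way. Single vessel genes did: 2 of the 10 and 5 of the 11 further pan-endothelial genes were wholly higher in KO tumours, beside 22.7% of all tested genes.

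**Figure D5:**
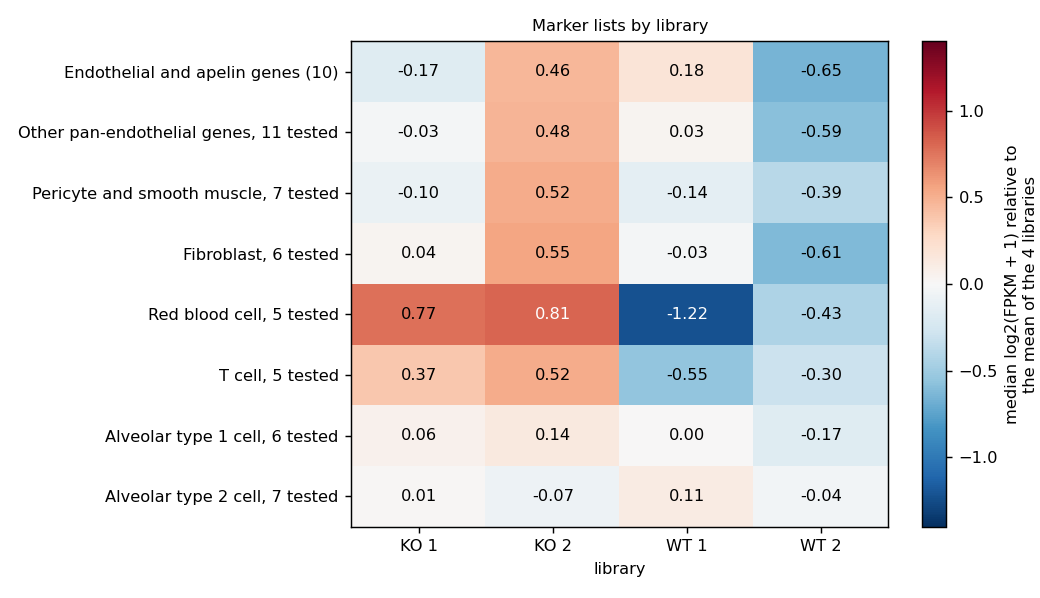
Median log2(FPKM + 1) of marker lists in each library, relative to the mean of the 4 libraries (red, above; blue, below). The endothelial, pericyte and fibroblast lists are lowest in WT 2, at -0.65 to -0.39, and highest in KO 2, at 0.46 to 0.55, whereas the red blood cell and T cell lists separate KO from WT libraries.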

How the data were processed

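The deposited table gives FPKM per gene for 4 libraries. The submitters' processing notes list mm10, TopHat2 and DESeq2 without saying which step each served; the sources used here do not give the counter, gene lengths, filters or strand setting. Of 35275 gene identifiers, 34490 could be named from GENCODE M21 (GRCm38, the assembly of mm10). No exon of the 10 genes overlapped an exon of another annotated gene.

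Whole reads were recovered for all 21601 genes above 0, by finding a length at which the 4 FPKM values became whole within 0.0002 reads plus rounding. Where no annotated length fitted (all of the 10 genes except Apln), the smallest fitting length was used, so reads may be undercounted. Reads carry no molecular identifiers, and counting precision covers counting error only.

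KO and WT libraries, grouped by their titles, were compared with limma 3.58.1 (R 4.3.3) on log2(FPKM + 1), with a mean-variance trend and Benjamini-Hochberg adjustment over the 13147 genes that reached an FPKM of 1 in at least 2 libraries. Fold changes on this scale understate changes of low genes. The residual degrees of freedom are 2 and the variance prior adds 4.12; an exact permutation test of 2 against 2 libraries cannot go below 0.333. The design text refers to separate mice, and p-values measure the spread between these 4 pools. Alternatives were another scaling, filter, pseudocount or variance prior, the replicate block, each library left out, and limma-voom on recovered reads. The steps were tested on simulated data. Reads simulated for the fit held no shift shared by genes within a library, so that test does not cover such shifts.

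The 10 genes and the gene lists were chosen with earlier results of these data known. From each list the text names up to 3 further genes by absolute fold change; genes standing out in 1 library were named after their values were seen. A listed gene of the apelin pathway is not reported here.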

Additional observations from a re-analysis of the deposited data

How the results depend on the processing

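Each of the 10 genes kept its side of the threshold under the 13 other settings it was tested in (Ednrb did not pass the filter at an FPKM of 5), except Apln without KO 1, given above; a crossed pairing, described below, was not among them. Of 129 such values, 8 turned direction. Over the 4 libraries left out in turn, the log2 fold change ran from -0.26 (without KO 2) to 0.46 for Car4, from -0.12 (without WT 2) to 0.975 for Cdh5, from -0.31 (without WT 2) to 0.725 for Kdr, from -0.24 (without WT 2; -0.16 without KO 2) to 0.36 for Vwf, from -0.82 to 0.35 (without WT 1) for Ednrb and from -0.23 to 0.093 (without KO 1) for Flt1. Vwf was also at -0.01 on the TPM scale. Genes called over the whole table were 15, and 8 with limma-voom, 1 with no filter and 10 to 221 with a library left out. With the replicate block 69 were called and 0 of the 10; the labels do not say that a number pairs libraries, and deviations of same-numbered libraries correlated at -0.306 across genes. Pairing KO 1 with WT 2 and KO 2 with WT 1 gave 848 calls among the 13147 tested genes, and 3 among the 10. This choice was made after seeing the data, from the correlation above. Blocking on it takes out spread that it was chosen to match, so the rise in calls is no support for any gene. With a library left out, 4 to 8 of the 10 did not overlap where the full set gave 2. Leaving a library out can only keep or raise this count. The share of all tested genes under these settings is not given, so the rise says nothing about the 10. The median log2 fold change of the 10, at 0.32, was 0.21 without Apln and ran from -0.04 (without WT 2) to 0.82 (without WT 1) with a library left out. The causes of the other shifts were not tested. With 2 libraries a genotype, the intervals given above set what could be seen. Ednrb, with the fewest reads of the 10, had 165 and 234 reads in KO 1 and KO 2 and 499 and 171 in WT 1 and WT 2.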
